A study of Bos indicus x Bos taurus with 20 samples.

Results

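The trophectoderm (TE) of bovine blastocysts was compared between embryos that had received METTL7A mRNA as zygotes and embryos that had received vehicle. The comparison comprised 6 of the 20 libraries of the study, chosen by their labels, with 3 TE libraries of METTL7A-injected embryos (METTL7A) and 3 of vehicle-injected embryos (Control). All were Bos indicus x Bos taurus embryos of wild-type genotype, and the mRNA was transcribed in vitro. PolyA RNA was amplified from cells without prior RNA extraction. No group received another mRNA, so an effect of METTL7A cannot be told apart from an effect of injecting mRNA. The labels do not state the age of the blastocysts, how the TE was separated from the inner cell mass (ICM), or how many embryos went into a library. Replicates are not stated to come from separate pools, so p-values measure the spread between these libraries, which may be technical.

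The TE is the outer epithelium of the blastocyst. It pumps fluid into the blastocoel, gives rise to the placenta and in cattle secretes interferon tau, the signal by which the mother recognises pregnancy. The ICM, which it encloses, forms the embryo proper. The METTL7A gene (TMT1A in newer nomenclature) encodes a thiol methyltransferase that sits on lipid droplets and in the membrane of the endoplasmic reticulum. The title of the study connects it with oxidative stress.

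Genes of the TE and ICM table are given as Ensembl identifiers, and 0 of its 27607 identifiers were paired with a symbol by the sources used here. The injected gene, the lineage markers and the pathway genes were therefore not analysed here by name, and the TE label could not be checked against markers. Genes are described below as groups defined by their direction, their read coverage and their change in the ICM. The largest changes are identified by Ensembl identifier. The TE libraries held 9462759 to 12864399 counts, and the 14128 genes with enough counts were tested in 1 edgeR fit of the 12 TE and ICM libraries. Levels are given in CPM, counts scaled to the TMM-adjusted library size, as mean ± SD with n = 3. They are not corrected for gene length, and a lower level in bulk material cannot separate fewer expressing cells from less RNA per cell.

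The number of genes that separated the lineages in Control embryos depended on the test. By edgeR 0 of 14128 genes differed between Control TE and Control ICM at an adjusted p under 0.05 (0% called), with 2479 genes at an unadjusted p under 0.05. DESeq2 called 496, and edgeR called 405 without Control ICM replicate 3. Control ICM replicate 1 stood apart, with 7261807 counts, the fewest of the 12 libraries, and a correlation of 0.92 to 0.93 with the Control TE libraries. Without that replicate edgeR still called 0 genes, with 1177 of 14651 at an unadjusted p under 0.05. Within Control TE the correlation of log2 CPM between libraries was 0.977 to 0.981, and between Control TE and Control ICM it was 0.92 to 0.975, over 14128 genes. In METTL7A-injected embryos 21 genes differed between TE and ICM (0.149% called), 16 higher in TE (0.113% called) and 5 lower (0.0354% called).

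In the TE, 1081 of 14128 genes changed after METTL7A injection (7.65% called at an adjusted p under 0.05). Of these, 587 were higher in METTL7A libraries and 494 were lower. Of the calls 54.3% were higher, and 62% without library factors (626 higher and 384 lower). The genes that rose did so by a median log2 fold change of 1.67, and 237 of them rose more than 4-fold. Over all calls the genes that fell did so by a smaller amount, with a median of -1.06 and 53 genes that fell more than 4-fold. Within classes of similar coverage, given below, the medians of rises and falls lay closer together in size. The first principal component of the 6 TE libraries held 56.7% of the variance and parted the treatments, with Control libraries at -47.4, -46.9 and -39.7 and METTL7A libraries at 53.6, 54 and 26.5. METTL7A replicate 3 lay nearest to Control. The 2 groups did not overlap in CPM in 584 of the higher and 491 of the lower genes, beside 37.6% of all genes tested. Calls on these same libraries favour such genes, so the counts without overlap are a description.

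The number of genes called depended on the libraries that entered. Without 1 TE library the count was 363, 314 and 453 when Control replicate 1, 2 or 3 was left out, and 421, 297 and 884 when METTL7A replicate 1, 2 or 3 was left out. Of the 1081 genes, 206 (19.1%) were called in every one of these 6 fits. Of the 206, 122 were higher, with a median log2 fold change of 2.16, and 84 were lower, with a median of -1.5. The 6 TE libraries fitted alone gave 2492 genes, and DESeq2 gave 1760.

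The gene of largest rise, among the genes called whose groups did not overlap and that reached 10 CPM, was ENSBTAG00000046155. It stood at 0.239, 0.765 and 0.615 CPM in the 3 Control libraries and at 83.7, 52.3 and 27.7 CPM in the 3 METTL7A libraries. Every METTL7A library was thus far above every Control library, although the METTL7A libraries differed among themselves. The log2 fold change was 6.63 (SE 0.519, adjusted p = 2.07e-05), and it was past the threshold in all 20 alternative fits, with adjusted p from 4.23e-35 to 0.00132. In the ICM the same gene rose by 4.16, from 2.25 ± 0.987 to 40.1 ± 8.83 CPM (adjusted p = 0.00191).

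The next was ENSBTAG00000021445, at 0.239, 0.153 and 0.088 CPM in Control and 14.4, 16 and 14.3 CPM in METTL7A libraries. Its METTL7A libraries lay close together, and its Control level rested on 6 counts over the 3 libraries. The log2 fold change was 6.43 (SE 0.646, adjusted p = 9.26e-05, and 6.88e-17 to 0.00235 over 20 alternative fits). The gene had 1 to 4 counts in each Control library of TE and ICM. It thus passed the filter on low counts through METTL7A libraries, where it was high, and its p-values carry that limit. In the ICM it rose by 4.36 (adjusted p = 0.00379).

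By the same limits on overlap and level, the largest fall was that of ENSBTAG00000008871, at 28.3, 59.5 and 34.7 CPM in Control and 2.86, 2.29 and 2.17 CPM in METTL7A libraries. The METTL7A libraries were uniformly low. The log2 fold change was -4.06 (SE 0.959, adjusted p = 0.0356). The call was lost in each fit that left out 1 TE library (adjusted p = 0.073 to 0.139), and over all 20 alternative fits the adjusted p ran from 1.68e-05 to 0.139. In the ICM the gene stood at 22.3, 1.89 and 1.38 CPM in METTL7A and 43.1 ± 4.36 CPM in Control libraries, a log2 fold change of -2.39 that did not pass (adjusted p = 0.113).

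ENSBTAG00000054034 had the next largest fall by these limits, with 5.17, 13 and 24 CPM in Control and 0.173, 0.417 and 2.89 CPM in METTL7A libraries. The groups did not overlap, and both were widely spread. The log2 fold change was -3.54 (SE 0.918, adjusted p = 0.0407). It was -5.56 without METTL7A replicate 3 and -2.91 without Control replicate 3, -3.03 and -3.17 without METTL7A replicates 1 and 2, and the call was lost without Control replicate 2 or 3 or METTL7A replicate 1 or 2 (adjusted p = 0.102 to 0.149). Over all 20 alternative fits the adjusted p ran from 0.00208 to 0.149. In the ICM its log2 fold change was -2.2 (adjusted p = 0.122).

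**Figure D1:**
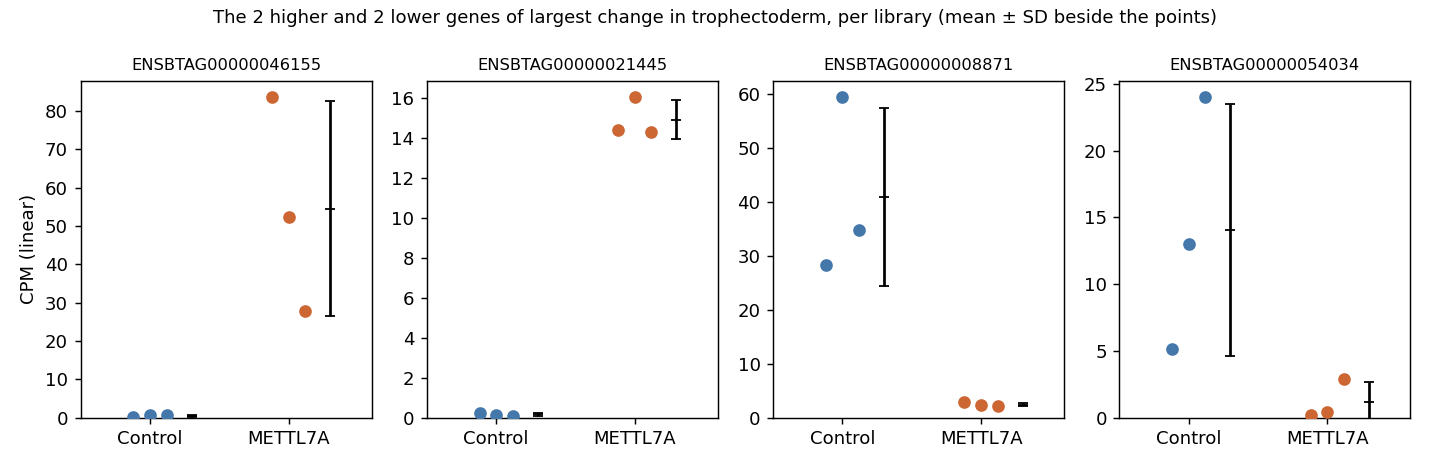
CPM (linear axes from 0) of the 2 higher and 2 lower genes of largest change in each TE library, with the mean and SD of 3 libraries beside the points. ENSBTAG00000046155 spans 27.7 to 83.7 CPM in METTL7A and stays under 1 CPM in Control libraries, and ENSBTAG00000008871 is under 3 CPM in every METTL7A library.

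The 12 genes of largest change in each direction, selected in the same way, differed in level and size. The 12 largest rises ran from 3.77 to 6.63 in log2 fold change, with Control means of 0.16 to 40.1 CPM and METTL7A means of 11.9 to 548.3 CPM. The 12 largest falls ran from -2.55 to -4.06, with Control means of 13.1 to 253.5 CPM and METTL7A means of 1.16 to 39.5 CPM. In the ICM, 12 of the 12 rises had the same direction and 10 passed the test there, and 12 of the 12 falls had the same direction and 5 passed. Over all genes tested 69% had the same direction in both lineages, and 4.78% were called higher and 4.13% lower in the ICM. The filter on low counts drew on TE and ICM libraries together, and rises such as ENSBTAG00000021445 passed it through METTL7A libraries. For such genes the agreement in the ICM is a description.

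Genes that rose and genes that fell differed in how many reads they drew. The filter on low counts bears on this contrast: 1390 of the 14128 genes tested did not reach the count minimum in at least 3 Control libraries of either lineage, 122 of the 587 higher genes among them, and 636 did not reach it in at least 3 METTL7A libraries, 12 of the 494 lower genes among them. The following values are therefore given for the 12442 genes that reached it in at least 3 libraries of each treatment, a restriction chosen after the data were seen. Over the 6 TE libraries together the 465 higher genes among them had a median of 16.2 CPM and the 482 lower genes a median of 59.6 CPM, beside 17.7 CPM over all 12442 genes. The higher genes had a median of 7.85 CPM in Control and 23.7 CPM in METTL7A TE, and the lower genes 80.7 and 39.3 CPM. Since the genes were called on these libraries, the levels are a description.

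When the genes tested were divided into 4 classes of 3532 by their mean CPM over the 6 TE libraries, the balance of calls turned with coverage. In the class of lowest coverage, 0.0636 to 3.06 CPM, 130 genes were higher and 16 lower, but only 19 and 4 of these had reached the count minimum in both treatments. In the second class, up to 13.2 CPM, 181 were higher and 61 lower by that restriction, and in the third, up to 44.3 CPM, 155 were higher and 137 lower. In the class of highest coverage 110 were higher and 280 lower, with and without the restriction, that is 3.11% and 7.93% of its genes. Without the restriction, the called higher genes had median log2 fold changes of 3.01, 1.76, 1.26 and 1.12 from the lowest to the highest coverage. The called lower genes had medians of -3.13, -1.64, -1.11 and -0.98, the first of them over 16 genes. The part of coverage in the size of the called changes was not tested.

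The medians of whole classes moved in the same order as the balance of calls. Over genes that reached the count minimum in both treatments, the median log2 fold change was 0.128, 0.108, -0.033 and -0.116 from the lowest to the highest coverage. Over those of them that were not called in TE it was 0.121, 0.078, -0.036 and -0.09. With all genes tested the medians were 0.33, 0.11, -0.033 and -0.116, so that the lowest class stood higher by over 1.5 times with the genes that the restriction leaves out. Without library factors the 4 medians over all genes tested were 0.378, 0.161, 0.018 and -0.064, which turned the sign of the third class. In the ICM libraries the restricted classes had medians of 0.242, 0.187, -0.02 and -0.219.

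**Figure D2:**
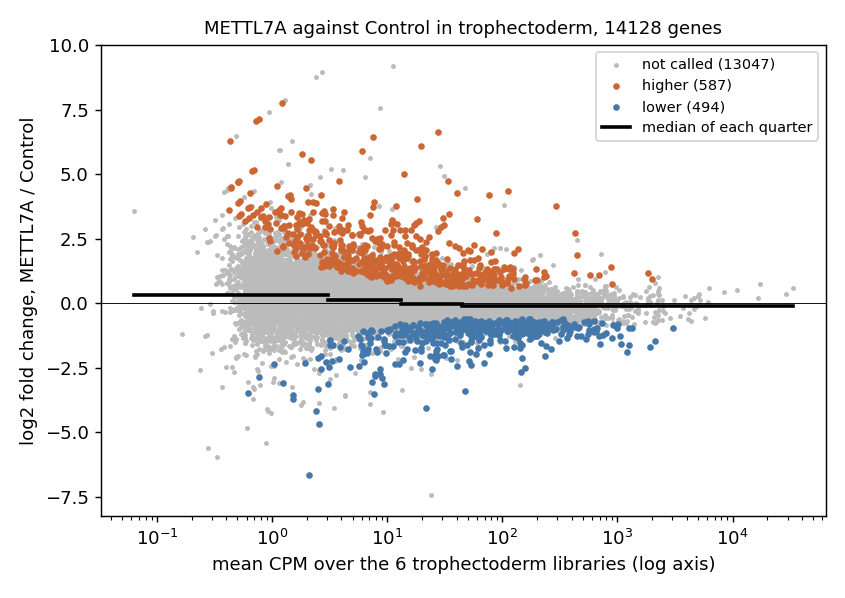
Log2 fold change (METTL7A over Control) against the mean CPM of the 6 TE libraries (log axis) for 14128 genes, with the 587 higher genes, the 494 lower genes and the median of each of the 4 coverage classes (black lines). Most falls lie at high coverage. The class medians go from 0.33 to -0.116, and that of the lowest class is 0.128 without the genes that did not reach the count minimum in both treatments.

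More genes were detected in METTL7A than in Control TE. Control libraries had 17936, 18102 and 18294 genes with at least 1 count, and METTL7A libraries had 19861, 19884 and 19238. The groups did not overlap, although total counts were 11023547, 9462759 and 11787756 in METTL7A and 12864399, 12792589 and 11211788 in Control libraries. Thinned to 7261807 counts each, the libraries had 17288 ± 297 genes in Control and 18902 ± 515 in METTL7A TE (exact permutation test, 2-sided p = 0.1, the smallest that 3 against 3 libraries allows). At a minimum of 5 counts and unthinned, the numbers were 14558 ± 169 and 15193 ± 156 genes (exact permutation p = 0.1).

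Genes present in one group and absent from the other were mostly present after METTL7A. With 0 counts in all 3 Control TE libraries and at least 1 count in every METTL7A TE library, there were 289 genes of 27607. The reverse pattern was found in 32 genes. These genes were near the limit of detection, with a median of 8 and 6 counts summed over the 3 libraries that held them. Of the 289 genes 8 had enough counts to be tested and 4 were called higher (edgeR). Of the 32 genes 1 was tested and 0 called. Among all genes tested 4.15% were called higher and 3.5% lower. The selection fixed the direction of any call, so these counts are a description. Of the 289 genes, 99 had counts in all 3 METTL7A ICM libraries and 32 in none, and 163 had at least 1 count in a Control ICM library. In the ICM itself 408 genes were present only in METTL7A libraries by the same definition and 15 only in Control libraries.

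The counts themselves moved between these groups of genes. The 587 higher genes held 1.303%, 1.311% and 1.381% of the counts of the 3 Control libraries and 3.606%, 3.379% and 2.997% of those of the METTL7A libraries. The 494 lower genes held 9.48%, 10.2% and 9.09% in Control and 4.53%, 4.16% and 5.28% in METTL7A libraries. METTL7A replicate 3 was closest to Control for both. Since the genes were chosen on these libraries, the shares are a description. ICM libraries were outside the TE contrast but shared its low-count filter and its estimate of the spread. In them the higher genes held 1.47% ± 0.047 in Control and 2.82% ± 0.183 in METTL7A embryos. The lower genes held 8.34% ± 0.403 and 5.37% ± 0.293.

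The 10 genes with most counts in a library took 12.6%, 9.29% and 14.5% of all counts in Control TE and 15.1%, 19.6% and 15.2% in METTL7A TE (exact permutation test, 2-sided p = 0.1). Within TE, gene detection and this concentration of counts in few genes thus moved with the treatment. Their part in the changes of single genes was not tested. In the ICM the share of the 10 genes overlapped between treatments, at 8.703%, 9.276% and 13.59% in Control and 15.47%, 13.06% and 10.92% in METTL7A libraries.

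**Figure D3:**
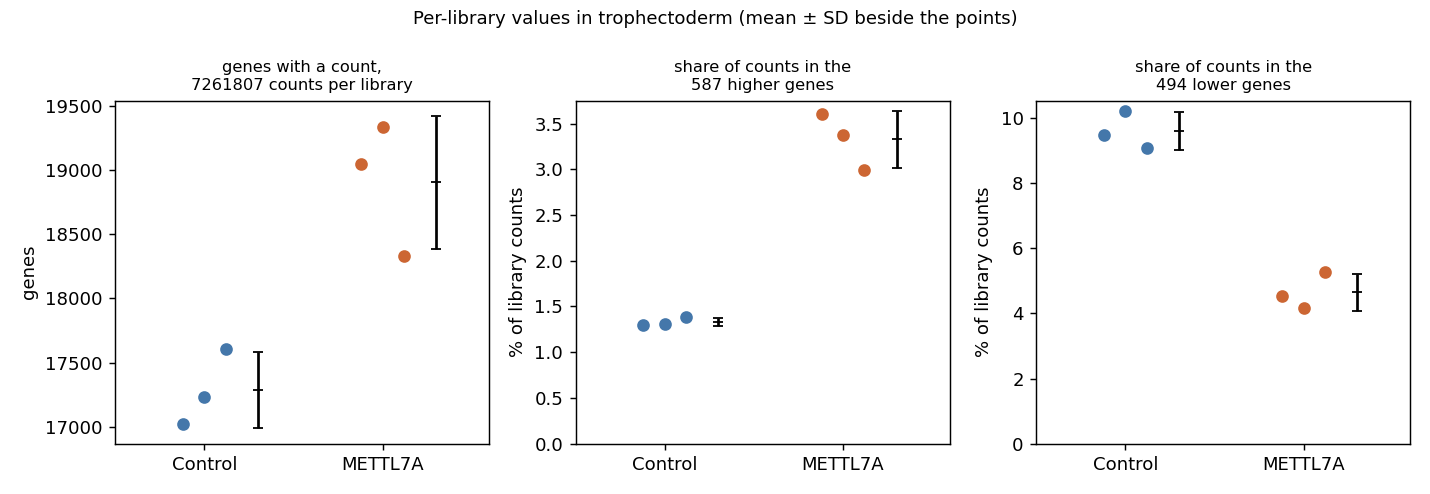
Values of each TE library with mean and SD (n = 3): genes with at least 1 count after thinning to 7261807 counts (axis does not start at 0), and the share of counts in the 587 higher and the 494 lower genes. METTL7A libraries lie above Control in the first 2 panels and below it in the third, without overlap.

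Whether the TE responded as the ICM did was examined in ICM libraries, of which none entered the TE groups. The labels do not say whether TE and ICM libraries of the same number came from the same embryos. Their deviations from the group means correlated at 0.098, 0.097 and 0.07 in METTL7A libraries, where those of unlike number gave -0.087 to 0.004. In Control libraries they correlated at -0.001, 0.04 and 0.168, where those of unlike number gave -0.164 to 0.088. All tests that set TE against ICM took the libraries as independent, without a term for shared embryos. Of the 587 genes higher in METTL7A TE, 558 (95.1%) were also higher in METTL7A ICM, and of the 494 lower genes 468 (94.7%) were lower. Over all genes tested 69% had the same direction in both. The low-count filter and the fit drew on TE and ICM libraries together. Of the higher genes, 122 had not reached the count minimum in at least 3 Control libraries of either lineage. Of the lower genes, 12 had not reached it in at least 3 METTL7A libraries. ICM counts could help to bring such genes into the test, and the agreement of the other genes alone was not tested. The test in the ICM was passed by 239 of the higher genes and 176 of the lower genes in the same direction, and by 0 genes in the opposite one, beside 4.78% of all genes called higher and 4.13% called lower in that comparison. The 415 genes called in both were 38.4% of the TE calls and 33% of the 1259 ICM calls (8.91% called). The ICM count was 353 to 1522 when 1 library was left out, lowest without METTL7A ICM replicate 2 and 457 and 512 without Control ICM replicates 2 and 1. Across 14128 genes the log2 fold changes in TE and ICM had a Pearson correlation of 0.629, a description over genes, which are not independent and which share 1 fit.

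The changes were nominally smaller in the lineage whose contrast had not called the genes. TE-higher genes had a median of 1.67 in TE and 1.11 in ICM, and TE-lower genes -1.06 and -0.7. Genes called higher in the ICM had a median of 1.6 there and 0.97 in TE, and those called lower -0.96 and -0.6. By the test of the difference itself, 0 of 14128 genes had an effect that differed between TE and ICM (edgeR, 0% called, smallest adjusted p = 0.0922). At an unadjusted p under 0.05 there were 1170 genes, where 706 would be 5% of those tested, and DESeq2 called 33. For ENSBTAG00000046155 the effect in TE exceeded that in ICM by 2.47 on the log2 scale (adjusted p = 0.482), and for ENSBTAG00000008871 the difference was -1.67 (adjusted p = 0.736).

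**Figure D4:**
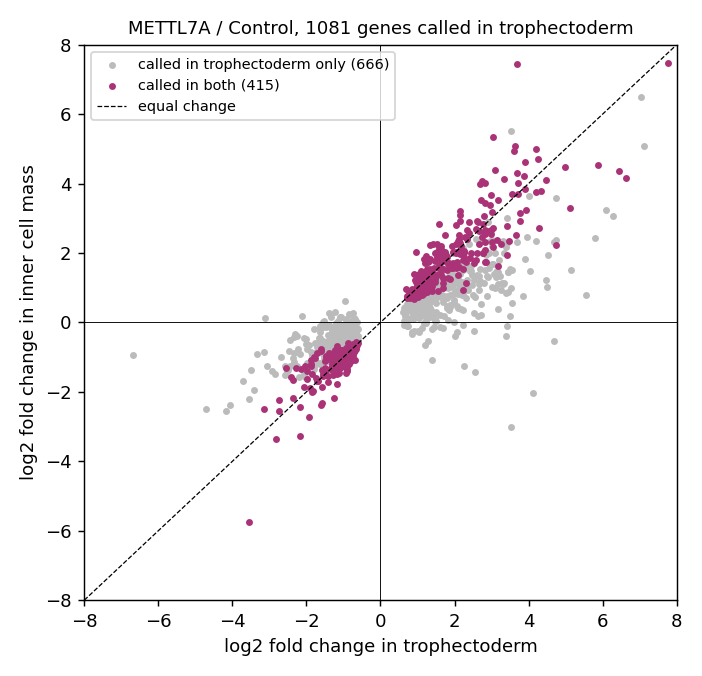
Log2 fold change (METTL7A over Control) in ICM against that in TE for the 1081 genes called in TE, with the 415 also called in ICM marked and a dashed line of equal change. All 415 lie in the quadrants of equal direction, and 474 of the 587 higher and 415 of the 494 lower genes have the larger change in TE, where they were chosen.

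Genes chosen in the ICM gave a view of each TE library that did not depend on the TE calls, although the filter and the fit were shared. The 676 genes higher in METTL7A ICM lay above the Control TE mean by a median of 1.05, 0.93 and 0.77 on the log2 CPM scale in METTL7A TE replicates 1, 2 and 3. The 583 genes lower in METTL7A ICM lay at -0.62, -0.67 and -0.51. Control TE libraries, each set against the other 2, lay at -0.08, -0.07 and 0.17 for the first group and 0.04, 0.15 and -0.17 for the second. Every METTL7A TE library was displaced in the direction of the ICM change, replicate 3 least, and Control replicate 3 was the Control library displaced the same way. In TE, 239 of the 676 genes (35.4%) were called higher and 176 of the 583 (30.2%) were called lower, against 4.15% and 3.5% of all genes tested.

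**Figure D5:**
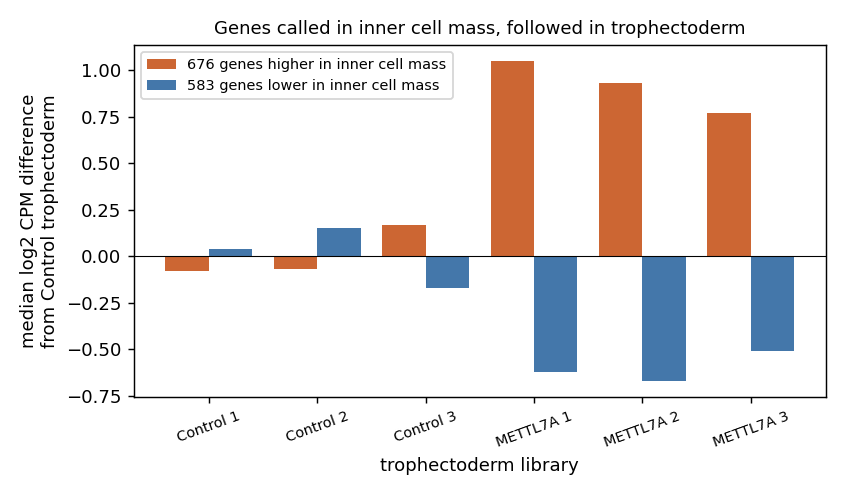
Median difference in log2 CPM of each TE library from Control TE (Control libraries from the other 2) for the 676 genes higher and the 583 genes lower in METTL7A ICM. The METTL7A libraries stand at 0.77 to 1.05 and -0.51 to -0.67, and the Control libraries between -0.17 and 0.17.

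The 206 genes called in every fit that left out 1 TE library were also followed in the ICM, whose libraries shared those fits and the low-count filter. How many of the 206 genes had reached the count minimum in both treatments was not counted. Of these, 203 had the same direction in the ICM and 131 passed the test there, beside 69% of all genes tested with the same direction and 8.91% called. The 122 higher ones had medians of 5.89 CPM in Control and 30.6 CPM in METTL7A TE, and a median log2 fold change of 1.35 in the ICM. The 84 lower ones had medians of 88.7 and 31.1 CPM, and a median of -0.92 in the ICM. Another 226 of the 1081 genes were called in none of the 6 fits, and of these 202 had the same direction in the ICM and 55 passed the test there.

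METTL7A TE libraries also varied more among themselves than Control TE libraries. The median SD of log2 CPM over the 3 libraries was 0.295 in METTL7A TE and 0.234 in Control TE, and 59.2% of the 14128 genes had the larger SD in METTL7A TE. Correlations between METTL7A TE libraries were 0.96 to 0.971. The spread was wider in the ICM and there larger in Control, with a median SD of 0.398 in Control and 0.372 in METTL7A libraries.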

How the data were processed

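The deposited table of the TE and ICM holds whole-number read counts per Ensembl gene, with no normalization, per the file headers and values. Libraries were made with SMART-Seq v4 and Nextera XT, which do not mark the strand, per the labels' protocols. Trim Galore 0.6.10, FastQC, STAR 2.7.11b, Subread 2.0.6 and DESeq2 1.44.0 were used, per the submitters' processing notes. The genome build is not given in the sources used here, nor is the annotation. The other deposited table, of the 2-cell and 8-cell stages, was not used.

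Counts were fitted in R 4.3.3 with edgeR 4.0.16 (robust quasi-likelihood test, TMM factors, filterByExpr with minimum count 10 and minimum total 15, 1 coefficient per group over 12 libraries). P-values were adjusted by the Benjamini-Hochberg method over 14128 genes, 2-sided, threshold 0.05. SEs follow from the fold change and its F statistic. Log2 CPM used a prior count of 3. Thinned gene numbers are expected values without replacement. Script steps were tested on simulated data. Alternatives included DESeq2 1.42.0 and limma 3.58.1.

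The comparison, lists and rules were chosen with earlier results of these data known. The text names, of the 12 genes per direction of largest fold change that passed the test, did not overlap between groups and reached 10 CPM, the first 2. The 19 gene lists written for the study could not be matched to identifiers and were not analysed here.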

Additional observations from a re-analysis of the deposited data

How the results depend on the processing

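The count of 1081 TE genes was within 1.5 times under RLE size factors, no library factors, both other filters, limma voom and each omission of an ICM library. It moved to 2492 with the 6 TE libraries alone and 1760 with DESeq2, and ran from 297 to 1585 when 1 of the 12 libraries was left out. The difference between TE and ICM gave 0 genes, 17 without the low-count filter, 33 with DESeq2, and 0 to 2 when 1 library was left out. The ICM count of 1259 moved to 2113 with DESeq2 and ran from 353 to 1522 when 1 library was left out, and without library factors 78.3% of its calls were higher, against 53.7%. That setting moved the median of all genes in the ICM from 0.028 to 0.207, and in TE from 0.023 to 0.074. Control TE against Control ICM gave 0 genes, 248 without the low-count filter. Same-numbered TE libraries did not deviate together (correlations -0.1, -0.144 and -0.034), so the numbers are not taken as pairs. With a replicate block within each lineage the TE count was 764, the ICM count 832 and the difference 0. Control TE against ICM gave 4 genes there. Replicate 1 was the reference of each block, so that count compares replicate 1 levels and not group means. Of the genes named, both rising ones were called in all 20 alternatives and each falling one in 11. The causes of these shifts were not tested. With 3 libraries per group, no permutation test of 1 value can pass 0.05, and genes with a few counts lie at the limit of these depths. Alternatives for the ICM, for Control TE against ICM and the omission of ICM libraries from the TE result were chosen after seeing the data.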
